A study of Rattus norvegicus with 10 samples.

Results

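The hypoxia response and glycolysis genes Hif3a, Ankrd37, Bnip3, Pfkl and Pfkfb3 are described here in rat lung with and without Cmg2. They were chosen by symbol, and these 5 were the ones found among 28 symbols of hypoxia-inducible and glycolytic genes (among them Vegfa, Ldha, Pgk1, Hk2, Hif1a and Epas1). The table analysed holds 1319 genes in all, each with an unadjusted p-value under 0.05 for Cmg2-KO against wild type (WT) in the authors' deposited table. Presence in that table is therefore itself a choice made on the genotype contrast, and the genotype difference of the 5 genes is given as a description. The other 23 symbols were not analysed here. For scale, the listed genes make up about 6.63% of the 19894 genes over which the authors adjusted their p-values.

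RNA was sequenced from whole lung of Sprague Dawley rats, an outbred strain, at 8 weeks of age. One group of 5 libraries came from WT rats and the other 5 from Cmg2-KO rats, which carry a null genotype (CMG2-/-) for the cell surface receptor CMG2, also named ANTXR2, which binds anthrax toxin and matrix proteins. The labels give no treatment, sex or construction of the allele, and do not say that each library is 1 animal, so the spread given here is a spread among libraries. Values are scaled counts, the authors' read counts divided by a size factor for each library. Over the listed genes they summed to between 1386578 and 1531531 per library. The targeted transcript was not analysed here, so no value checks the genotype labels. Of markers of lung epithelium, Sftpb and Scgb1a1 were among the listed genes, and the 2 listed alveolar type 2 genes (Sftpb, Etv5) summed to at least 44176 scaled counts in every library.

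Cells sense oxygen through hypoxia-inducible factors (HIFs). While oxygen is plentiful, prolyl hydroxylases of the Egln family mark the HIF alpha subunits for destruction through the VHL ubiquitin ligase. When oxygen is short the alpha subunits persist, pair with Arnt, and bind DNA at a short core that reads ACGTG or GCGTG, raising genes of glucose uptake, glycolysis, mitochondrial turnover and vessel growth. Hif3a encodes an alpha subunit, some forms of which restrain the others. Ankrd37, an ankyrin repeat protein, and Bnip3, a mitochondrial outer membrane protein that draws mitochondria into autophagy, are well-known HIF targets. Pfkl encodes the liver-type subunit of phosphofructokinase, the committing enzyme of glycolysis. Pfkfb3 encodes the enzyme that makes the main allosteric activator of phosphofructokinase and is also a HIF target.

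The promoter windows of these genes are shown because HIFs act on their targets through the core ACGTG or GCGTG. Each runs from 250 bases before to 50 bases from the transcript start in RefSeq (assembly GRCr8), 5′ to 3′ on the strand of the gene, and capitals mark ACGTG or GCGTG on either strand. All 5 genes matched an entry. Hif3a has a pair of windows, and the one printed is at the upstream start.
Hif3a: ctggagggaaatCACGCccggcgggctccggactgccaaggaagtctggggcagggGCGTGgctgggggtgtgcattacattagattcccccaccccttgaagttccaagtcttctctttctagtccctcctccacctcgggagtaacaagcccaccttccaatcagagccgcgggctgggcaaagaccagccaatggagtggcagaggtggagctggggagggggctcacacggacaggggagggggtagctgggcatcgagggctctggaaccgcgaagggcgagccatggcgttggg
Ankrd37: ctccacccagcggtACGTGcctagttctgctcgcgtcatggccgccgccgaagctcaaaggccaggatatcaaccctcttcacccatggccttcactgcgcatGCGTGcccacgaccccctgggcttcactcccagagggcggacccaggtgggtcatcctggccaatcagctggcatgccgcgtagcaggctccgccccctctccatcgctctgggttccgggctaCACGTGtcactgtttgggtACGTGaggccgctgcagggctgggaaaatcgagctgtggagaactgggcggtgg
Bnip3: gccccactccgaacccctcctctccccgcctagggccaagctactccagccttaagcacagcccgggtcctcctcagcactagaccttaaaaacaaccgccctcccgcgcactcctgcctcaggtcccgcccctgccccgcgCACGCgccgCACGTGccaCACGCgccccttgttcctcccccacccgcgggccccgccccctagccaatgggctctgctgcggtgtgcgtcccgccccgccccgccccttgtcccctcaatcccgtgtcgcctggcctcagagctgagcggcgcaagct
Pfkl: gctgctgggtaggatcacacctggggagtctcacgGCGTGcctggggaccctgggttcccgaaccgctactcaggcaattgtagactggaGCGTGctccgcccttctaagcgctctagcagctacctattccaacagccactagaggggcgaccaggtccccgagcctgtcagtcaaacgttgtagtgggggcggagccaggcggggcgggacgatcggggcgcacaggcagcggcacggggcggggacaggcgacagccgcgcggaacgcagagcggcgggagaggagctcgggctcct
Pfkfb3: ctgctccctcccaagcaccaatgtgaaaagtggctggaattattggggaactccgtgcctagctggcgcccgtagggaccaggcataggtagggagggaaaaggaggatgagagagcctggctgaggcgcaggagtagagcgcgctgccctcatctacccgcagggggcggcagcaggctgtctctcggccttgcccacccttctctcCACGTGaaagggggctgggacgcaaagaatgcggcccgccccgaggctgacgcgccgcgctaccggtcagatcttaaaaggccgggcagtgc
The windows lie at chr1:86877789-86878088 on the minus strand for Hif3a, chr16:53001257-53001556 on the plus strand for Ankrd37, and chr1:203154913-203155212 on the minus strand for Bnip3. For Pfkl and Pfkfb3 they lie at chr20:10663715-10664014 and chr17:71944683-71944982, both on the plus strand. These positions are in GRCr8, while the authors' table, whose build is not given in the sources used here, uses its own.

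Every printed window held at least 1 core. ACGTG and GCGTG were searched on both strands, and the palindrome CACGTG (the E-box, also the site of clock and MYC-family factors), which holds ACGTG on both strands, was counted as 1 site. Ankrd37 had the most, with 4 sites, among them 1 that spans the transcript start, from 4 bases before it, and a CACGTG 23 bases before it. Bnip3 had 3 sites within 108 bases of the start, the middle one a CACGTG. Pfkfb3 had 1, a CACGTG at 42 bases before the start. Hif3a and Pfkl had 2 GCGTG sites each and no ACGTG, at 238 and 194 bases before the start in Hif3a and at 215 and 160 in Pfkl. The downstream window of Hif3a held none. Such short motifs are common. Of 33469 RefSeq windows of the same length, 41.6% held ACGTG or GCGTG, 16.3% held at least 2 sites, and 6.42% held CACGTG. Of 864 windows matching listed genes by symbol, 53.6% held a core. The 6 member windows had a GC content of 62.3% to 71.3%, against a median of 51.7% over all windows. GGGCGG, the GC box, was found in the windows of Ankrd37, Bnip3, Pfkl and Pfkfb3. It was in 33.1% of all windows and in 57.1% of the windows of listed genes. The D-box TTATGTAA was in none of the 6 and in 0.893% of all. A match is a string of letters and no measurement of binding.

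The average of each of the 5 genes was lower in Cmg2-KO lung, by between 16.3% (Pfkl) and 63.4% (Hif3a) of the WT mean. In the fit to the listed genes, limma on log2(scaled count + 1), log2 fold changes of Cmg2-KO over WT ran from -1.18 for Hif3a to -0.25 for Pfkl, with a median of -0.38. The median over all 1308 genes tested was -0.15, and 51.8% of them had a log2 fold change below 0. None of the 5 passed an adjusted p of 0.05 in limma with adjustment over 19894 genes, where 0.229% of the genes tested did. The lowest adjusted p among them, for Pfkl, was 0.68 in limma and 0.152 in the authors' deposited table, where 5.46% of the listed genes were under 0.05. In the count tests on recovered reads of 9 libraries 0 of the 5 passed either, in edgeR beside 0.0765% and in DESeq2 beside 3.75% of the genes tested. With limma's p-values adjusted over the table alone, whose genes were preselected, 1 of the 5, Pfkl, passed (adjusted p = 0.0447), where 19.6% of the genes tested did. At an unadjusted p under 0.05, 2 of the 5 passed in limma, 1 in edgeR and 4 in DESeq2, where 79.1%, 63.5% and 71.7% of these preselected genes did. In none of the 5 did all Cmg2-KO libraries lie below all WT libraries, an arrangement found in 7.11% of the genes tested. Because the lung was sequenced whole, fewer cells of a type and less RNA per cell cannot be told apart in any of these values. These shares use the same contrast that put the genes in the table, and nothing is read from them.

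**Figure D1:**
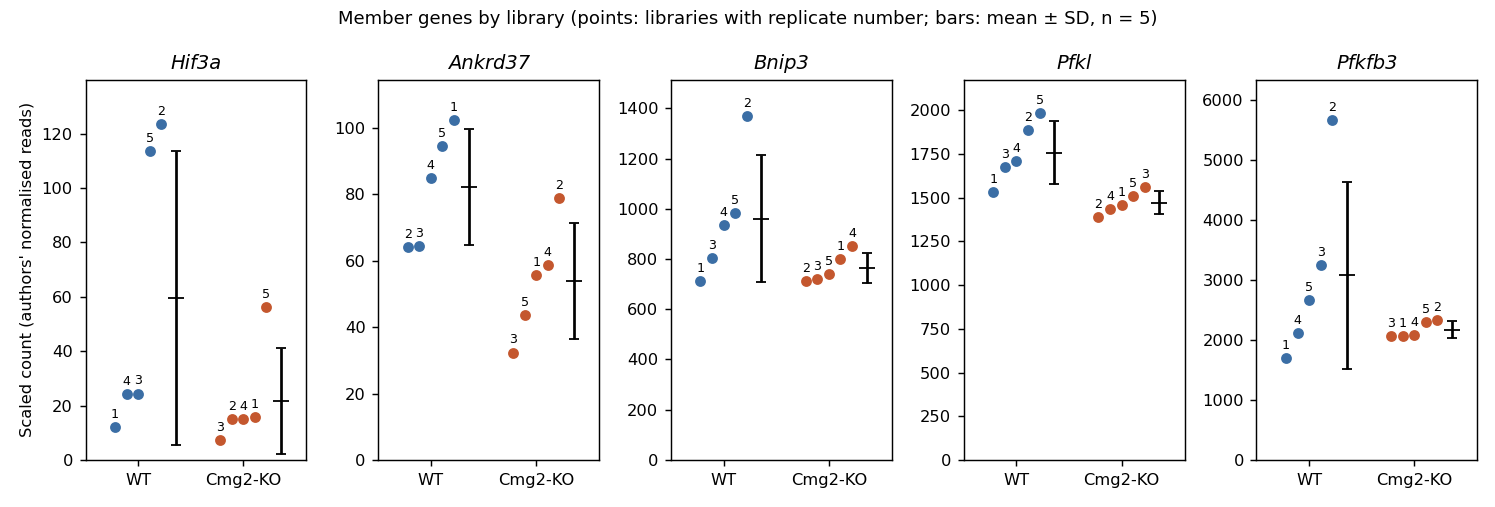
Scaled counts (vertical axes, each starting at 0) of the 5 genes in WT and Cmg2-KO lung. Each point is 1 library with its replicate number, and the bars are the mean ± SD of 5 libraries. The ranges overlap in every panel, with 4 WT libraries above all Cmg2-KO libraries for Pfkl and 2 for Hif3a.

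Hif3a (ENSRNOG00000017198, chromosome 1, 78976318 to 78997869 on the minus strand of the authors' annotation), which encodes a HIF alpha subunit, varied most. In WT 1 to WT 5 it stood at 12.2, 123, 24.4, 24.3 and 114 scaled counts. In Cmg2-KO 1 to Cmg2-KO 5 it stood at 15.6, 14.9, 7.31, 15.1 and 56.1. WT 2 and WT 5 lay above every Cmg2-KO library, WT 1 lay below 4 of the 5, and Cmg2-KO 5 lay above the other 3 WT libraries. The means were 59.6 ± 54.1 and 21.8 ± 19.5 (SD, n = 5 per genotype), and the medians 24.4 and 15.1. The log2 fold change was -1.18 ± 0.70 (SE; limma). The lowest library rested on 7 reads. Leaving out WT 2 and WT 5 together, a choice made after their values were seen, gave -0.16 ± 0.58.

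Ankrd37 (ENSRNOG00000031335, chromosome 16, 49462889 to 49465888, plus strand), the target with the most core sites, had a different pattern. Its WT libraries stood, in order, at 103, 64.3, 64.4, 84.9 and 94.7 scaled counts. Its Cmg2-KO libraries stood at 55.6, 79.1, 32.4, 58.6 and 43.7. A set of 4 Cmg2-KO libraries lay below all WT libraries, and Cmg2-KO 2 lay among them. The WT library that was highest for Hif3a, WT 2, was the lowest for Ankrd37. The means were 82.2 ± 17.4 and 53.9 ± 17.5 (SD, n = 5) and the log2 fold change was -0.63 ± 0.25 (SE; limma). It was -0.67 ± 0.30 without WT 2 and WT 5, and between -0.79 and -0.47 when single libraries were left out.

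Bnip3 (ENSRNOG00000017243, chromosome 1, 211248098 to 211265282, minus strand), the mitophagy receptor, stood at 711, 1369, 803, 935 and 984 scaled counts in WT 1 to WT 5. In Cmg2-KO 1 to Cmg2-KO 5 it stood at 800, 713, 722, 851 and 739. WT 2 was the highest library and WT 1 the lowest of all 10, so the Cmg2-KO values lay inside the WT range. The means were 960.5 ± 253 and 765 ± 58.8 (SD, n = 5) and the log2 fold change was -0.29 ± 0.15 (SE; limma). Without WT 2 it was -0.16 ± 0.10, and without WT 2 and WT 5 it was -0.09 ± 0.10.

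Pfkl (ENSRNOG00000001214, chromosome 20, 11393877 to 11415882, plus strand), the glycolytic enzyme subunit, had the narrowest spread. It stood at 1531, 1887, 1675, 1710 and 1985 scaled counts in WT 1 to WT 5. In Cmg2-KO it stood at 1457, 1388, 1559, 1438 and 1511. The groups overlapped only through WT 1, which lay below Cmg2-KO 3. The means were 1757 ± 179 and 1471 ± 66.1 (SD, n = 5) and the log2 fold change was -0.25 ± 0.07 (SE; limma). It was -0.16 ± 0.06 without WT 2 and WT 5, so here too the WT libraries highest for Hif3a were the highest.

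Pfkfb3 (ENSRNOG00000018911, chromosome 17, 70684134 to 70713726, plus strand), which sets the supply of the phosphofructokinase activator, had the most reads of the group. It stood at 1693, 5664, 3253, 2124 and 2665 scaled counts in WT 1 to WT 5. In Cmg2-KO it stood at 2072, 2337, 2063, 2078 and 2306, a range of only 1.13-fold from lowest to highest, against 3.34-fold in WT. WT 2 and WT 3 were the highest libraries and WT 1 the lowest of all. The means were 3080 ± 1559 and 2171 ± 138 (SD, n = 5) and the log2 fold change was -0.38 ± 0.26 (SE; limma). Without WT 2 it was -0.12 ± 0.16, and without WT 2 and WT 5 it was -0.07 ± 0.18. Its unadjusted p in the authors' deposited table, 0.048, was the nearest of the 5 to the limit of 0.05 that decided entry. Those of Bnip3, Hif3a, Ankrd37 and Pfkl there were 0.0382, 0.0302, 0.0167 and 0.00132.

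**Figure D2:**
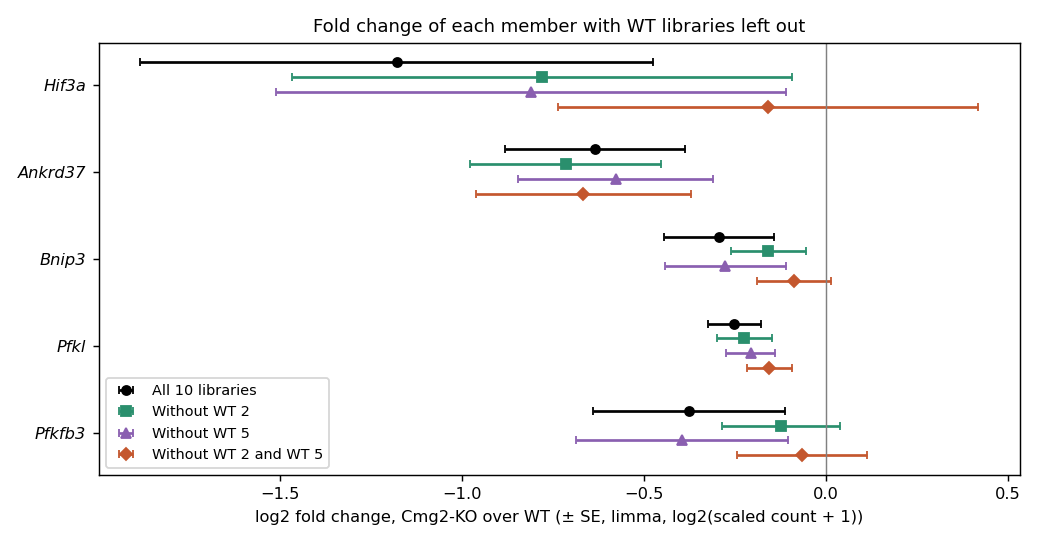
Log2 fold change of Cmg2-KO over WT (horizontal axis, point ± SE from limma) for each gene with all 10 libraries, without WT 2, without WT 5 and without both. Ankrd37 stayed between -0.72 and -0.58, while Hif3a went from -1.18 to -0.16 and Pfkfb3 from -0.38 to -0.07. WT 2 and WT 5 were the highest libraries for Hif3a, so its smaller change was built into the choice. For Ankrd37 WT 2 was the lowest WT library and WT 5 lay above the WT mean. Ankrd37 was at -0.79 without Cmg2-KO 2 and at -0.47 without Cmg2-KO 3, which are not drawn.

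The fold changes of Hif3a, Bnip3 and Pfkfb3 thus moved by over 1.5 times without WT 2, with or without WT 5, and that of Pfkl did so without both. These libraries were picked for their high values, so smaller changes without them were built into the choice. Without WT 1, the lowest WT library for all but Ankrd37, the changes were larger for Hif3a (-1.59), Bnip3 (-0.39), Pfkl (-0.30) and Pfkfb3 (-0.56). That of Ankrd37 was then -0.55. All 5 genes kept a log2 fold change below 0 with each library left out in turn and with both WT 2 and WT 5 left out. The genes were listed by this contrast in these same libraries, so nothing is read from the kept sign. The median of the 5 was -0.16 without WT 2 and WT 5, where the median over all genes tested was -0.10. With WT 2 alone left out it was -0.22, and with WT 5 alone left out it was -0.40.

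Spread among libraries is described for each genotype. The SD of log2(scaled count + 1) was larger in WT for 4 of the 5 genes, against 56.6% of the genes tested, and no test was made of this. For Pfkfb3 it was 0.67 in WT and 0.09 in Cmg2-KO, for Bnip3 0.36 and 0.11, for Pfkl 0.15 and 0.06, and for Hif3a 1.45 and 1.01. Ankrd37 went the other way, with 0.31 and 0.47. Without WT 2 and WT 5 the count was 3 of 5.

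Levels can be compared between genes only per length. Per kilobase of the gene length in the authors' table, WT lung held 653 scaled counts of Pfkfb3, 638 of Pfkl and 594 of Bnip3, and the library ranges of these 3 overlapped. Ankrd37 followed at 94.2 (73.7 to 118) and Hif3a at 28.9 (5.9 to 59.8), and these ranges overlapped neither each other nor those of the first 3. In Cmg2-KO the order was Pfkl at 534 (504 to 566), Bnip3 at 473 (440 to 526) and Pfkfb3 at 460.3 (437 to 495). There Pfkl lay above Pfkfb3 in every library, while Bnip3 overlapped both. Ankrd37 at 61.8 and Hif3a at 10.6 again came last.

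Covariation among the 5 genes was taken from the deviations left after the mean of each genotype was subtracted. It is still not independent of how the genes were listed. WT 2 also weighed in the genotype contrast of Hif3a, Bnip3, Pfkl and Pfkfb3, and WT 5 in that of Hif3a and Pfkl. Without WT 5 alone, the log2 fold change was -0.28 for Bnip3 and -0.40 for Pfkfb3, against -0.29 and -0.38 with all libraries. Over the 10 libraries, Pearson's r of these deviations was 0.72 for Hif3a and Pfkl, 0.68 for Hif3a and Bnip3, 0.65 for Hif3a and Pfkfb3, 0.77 for Bnip3 and Pfkfb3, 0.65 for Bnip3 and Pfkl and 0.53 for Pfkl and Pfkfb3. Ankrd37 had a negative r with each of the others, from -0.45 with Pfkl to -0.09 with Hif3a. None of the 10 pairs passed an adjusted p of 0.05 (two-sided exact permutation of libraries within genotype, Benjamini-Hochberg over the 10 pairs). The lowest p was 0.0563 and the lowest adjusted p 0.211, and 0 pairs had an unadjusted permutation p under 0.05. Spearman's rho was between -0.48 and 0.71, with a lowest adjusted permutation p of 0.3, and it was well below r for Bnip3 and Pfkfb3, at 0.20, and for Pfkl and Pfkfb3, at 0.13. For the pairs led by Hif3a, Bnip3 or Pfkl, the libraries farthest from the median were WT 2 and WT 5. Without them the 6 positive values of r dropped to between 0.12 and 0.41. Leaving out the extreme libraries of a gene also narrows its range, so this drop cannot show whether the genes are related. Without WT 2 alone all 6 were lower, and r of Bnip3 and Pfkfb3 dropped to 0.25. Without WT 5 alone, 5 of the 6 were higher, that of Pfkl and Pfkfb3 at 0.73. Without WT 1, the lowest WT library for 4 of the 5 genes, all 6 were lower, at 0.20 for Pfkl and Pfkfb3 and 0.42 for Bnip3 and Pfkl. For the pairs led by Ankrd37 the libraries left out were WT 1 and Cmg2-KO 3, and r became -0.18 with Bnip3, -0.07 with Pfkl and -0.44 with Pfkfb3.

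**Figure D3:**
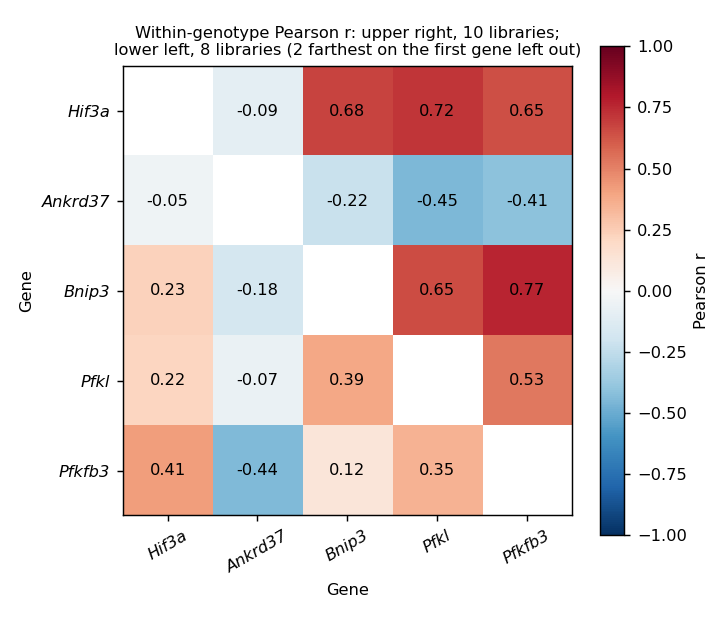
Pearson's r between the 5 genes (both axes) after subtracting genotype means, from -1 (blue) to 1 (red). Cells above the diagonal use 10 libraries, and those below use 8, without the 2 libraries farthest from the median of the gene that comes first. The 6 positive values above the diagonal, 0.53 to 0.77, drop to 0.12 to 0.41 below it.

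Genes whose pattern was most like that of the 5 were sought among 978 other listed genes with a symbol. Likeness was Pearson's r, over 10 libraries, with the mean standardized deviation of the 5 genes from their genotype means, and it is given as a description. Among the highest were the potassium channel gene Kcnj4 (0.95), the sulfotransferase Sult1a1 (0.94), Ccdc71l (0.92) and Fam107a (0.91). In each of these 4 genes WT 2 and WT 5 were the 2 highest libraries, as in Hif3a. The mean profile was itself highest in WT 2 (0.40) and WT 5 (0.24), so this followed from how the genes were chosen. Fam107a reached 2072 scaled counts in WT 2 and 1627 in WT 5, against 502 to 1109 in the other WT libraries and 512 to 997 in Cmg2-KO. Kcnj4 stood at 282 and 199 in WT 2 and WT 5, against 86.3 to 145 in the other WT libraries and 97.5 to 136 in Cmg2-KO. A total of 25 genes had an r above 0.8 and 20 an r below -0.8. Within the group, the r with this mean profile was 0.90 for Hif3a, 0.88 for Bnip3, 0.78 for Pfkfb3 and 0.75 for Pfkl, each of which is part of it, and -0.05 for Ankrd37.

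Other genes of the pathways went both ways and none passed an adjusted p of 0.05 in limma. Of 31 further genes of glycolysis, gluconeogenesis and pyruvate use, 4 were listed, 3 of them higher and 1 lower in Cmg2-KO. The lower one was Pdk4, the kinase that shuts pyruvate out of mitochondrial oxidation. It stood at 182, 609, 311, 288 and 251 scaled counts in WT 1 to WT 5 and at 138, 222, 83.5, 152 and 163 in the Cmg2-KO libraries. Its log2 fold change was -1.05 ± 0.32 (SE; limma). WT 2 was again the highest, and 4 WT libraries lay above all Cmg2-KO libraries. Fbp2, a fructose bisphosphatase of gluconeogenesis, had means of 95.2 ± 15.3 and 133 ± 23.0 for WT and Cmg2-KO (SD, n = 5). Pck1, the cytosolic enzyme that opens gluconeogenesis, averaged 11.1 ± 4.60 and 23.4 ± 17.2, with Cmg2-KO 2 and Cmg2-KO 5 at 36.9 and 46.8 and the other 3 at 10.4 to 12.5. Eno2, the enolase of neurons and neuroendocrine cells, stood at no more than 3.03 in WT and 2.61 in 3 Cmg2-KO libraries, but at 35.9 in Cmg2-KO 4 and 19.8 in Cmg2-KO 5.

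Of 32 further genes of HIF control and HIF response, 1 was listed. It was Car12, a membrane carbonic anhydrase, whose mean was 16.7 ± 3.29 scaled counts over the WT and 8.79 ± 3.06 over the Cmg2-KO libraries (SD, n = 5), and whose log2 fold change was -0.88 ± 0.28 (SE; limma). Of 10 genes for VEGF ligands and receptors other than Vegfa, 2 were listed, both higher. They are a ligand and its receptor in lymphatic growth. Vegfc averaged 352 ± 63.5 and 443 ± 48.3, and Flt4 817 ± 64.5 and 946 ± 83.7, with log2 fold changes of 0.34 ± 0.13 and 0.21 ± 0.08 (SE; limma). Of 16 genes of amino acid and energy stress, 2 were listed, Ddit3 at a log2 fold change of 0.22 ± 0.10 and Rptor, a subunit of mTOR complex, at -0.12 ± 0.05 (SE; limma).

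WT 2 and WT 5, the highest libraries for Hif3a, Bnip3 and Pfkl but not for Ankrd37 or both for Pfkfb3, also stood high for clock genes. There WT 5 stood above WT 2, with WT 3 between them. Summed over the 5 genes, scaled counts were 9107 in WT 2, 5842 in WT 5 and 5820 in WT 3. Of 21 clock genes, 6 were listed, all lower in Cmg2-KO. Their summed scaled counts were highest in WT 5 at 6395, followed by 4064 in WT 3 and 2971 in WT 2, with WT 1 lowest of the WT libraries at 2093 and Cmg2-KO between 1544 and 2548. Per2, a repressor of the clock, stood at 2254 in WT 5 and 745 in WT 2, so WT 5 led there and WT 2 led for Pfkfb3. Of 16 glucocorticoid response genes, only Pdk4 was listed. The part of clock gene levels in the values of the 5 genes was not tested.

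**Figure D4:**
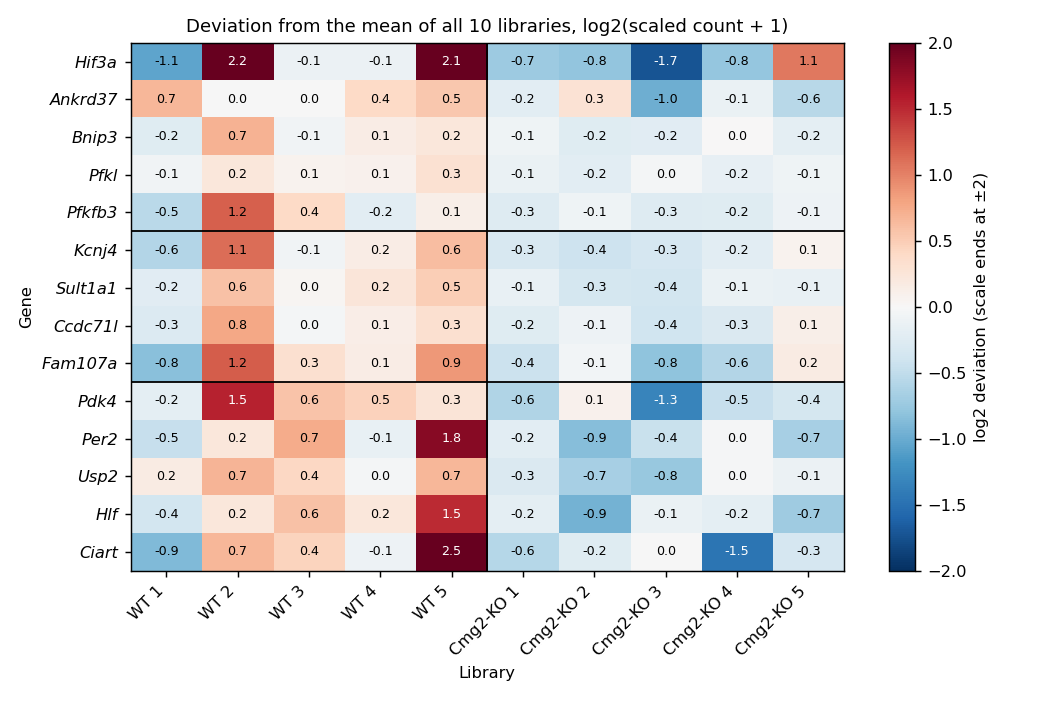
Deviation of log2(scaled count + 1) from the mean of all 10 libraries (colour and number in each cell) for the 5 genes, 4 of the genes most like them and 5 further genes (Pdk4 and 4 clock genes), by library. Hif3a was 2.2 above its mean in WT 2 and 2.1 above in WT 5, while Ankrd37 was at its mean in WT 2.

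Levels of lung cell type markers differed among the same libraries. The 2 listed alveolar type 2 genes of 10 summed to between 47793 and 68170 scaled counts in WT, with WT 2 highest and WT 1 lowest as for Pfkfb3, and to between 44176 and 51235 in Cmg2-KO. The 10 listed smooth muscle genes of 17, all lower in Cmg2-KO, summed to between 31812 and 51332 in WT, with WT 2 lowest, and to between 26313 and 38665 in Cmg2-KO. The 3 listed endothelial genes of 20 (Apln, Plvap, Tie1) summed to between 30764 and 38176 in WT and between 31740 and 38691 in Cmg2-KO. Of 10 club and ciliated cell genes, 3 were listed (Bpifb1, Cyp2f4, Scgb1a1), and none of the ciliated cell genes was among them. They summed to between 144254 and 196623 in WT and between 84339 and 176843 in Cmg2-KO. The 3 fibroblast genes of 12 ranged from 3806 to 7505 and from 3705 to 6343, the 6 mesothelial genes of 10 from 3166 to 5676 and from 3777 to 6966, and the 1 macrophage gene of 13, Siglec5, from 359 to 623 and from 297 to 431. No listed marker of these types was at 0 in any library, and 0 of the markers of alveolar type 1 cells, neutrophils and erythroid cells were among the listed genes. The part of cell composition in the values of the 5 genes was not tested.

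The 5 genes are not neighbours. Hif3a and Bnip3 share chromosome 1 and the others lie on chromosomes 16, 17 and 20. The nearest listed gene was Sorbs2 for Ankrd37, at 160 kb, and Strn4 for Hif3a, at 211 kb. No other listed gene lay within 1000 kb of Pfkfb3, and 1 did so for each of Pfkl and Bnip3, in the coordinates of the authors' table.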

How the data were processed

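Lung RNA extracted with Trizol was made into NEBNext Ultra libraries, per the labels' protocols. The submitters' processing notes name HISAT2 2.0.5 for alignment and, for counting, featureCounts 1.5.0-p3. Build, annotation release and the authors' test are not named there. The single deposited table gives a signal per library, the authors' read counts divided by a size factor (1 read is worth 0.869 to 1.11 scaled counts). It also gives the authors' log2 fold change, their fold as a linear ratio, and p-values before and after adjustment, per the file headers. All values were whole multiples of 1 read within a tolerance of 0.02 (100% of values). The authors' adjusted p-values match an adjustment over about 19894 genes. Total depth is unknown. Listed genes held 1289524 to 1620198 reads in the 9 libraries used for count tests. WT 4, whose step is close to 1, stayed out of those because a separate check did not mark its reads as recovered. By the tolerance above its values too were whole multiples.

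The genotype comparison used limma 3.58.1 (R 4.3.3; trend, robust) with a pseudocount of 1 on the log2 scale, for the 1308 genes above 0.5 in at least 5 libraries, with Benjamini-Hochberg adjustment over 19894 genes. This scale understates changes of low genes, and variances came from genes selected on the contrast. edgeR 4.0.16 (quasi-likelihood) and DESeq2 1.42.0 on recovered reads, other scalings, filters, pseudocounts, a replicate block and left-out libraries were alternatives. The members, gene lists and tests were chosen with earlier results of these data known. Named genes were the 5 members, up to 4 listed genes per pathway list by the authors' p-value, and the 5 symbols most like the members, of which 1 is not reported here. Cell type markers, genes beyond that rule and the nearest listed genes were named after their values were seen. Leaving out WT 2 and WT 5 together, and all alternatives for spread, were added after the values were seen. Promoter windows came from RefSeq (GRCr8).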

Additional observations from a re-analysis of the deposited data

How the results depend on the processing

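The genes were listed by the genotype contrast in these same libraries, so nothing is read from their signs here. All 5 genes had a log2 fold change below 0 under every alternative run. Leaving out single libraries moved it from -1.59 to -0.78 for Hif3a, -0.79 to -0.47 for Ankrd37, -0.39 to -0.16 for Bnip3, -0.30 to -0.21 for Pfkl and -0.56 to -0.12 for Pfkfb3, and their median from -0.55 to -0.22. On recovered reads of 9 libraries, the log2 fold changes in edgeR and DESeq2 were -0.61 and -0.61 for Pfkfb3, -1.65 and -1.65 for Hif3a, and -0.59 and -0.59 for the median, all beyond the ranges with single libraries left out. With adjustment over 19894 genes none of the 5 passed an adjusted p of 0.05 in limma, edgeR or DESeq2. The 3 genes passing in limma became 257, Pfkl among them, when adjusted over the table alone, 1 with edgeR and 49 with DESeq2, and between 1 and 6 with single libraries left out. With the replicate number as a block 0 passed, and 899 genes had an unadjusted p under 0.05 against 1035. Same-numbered libraries had deviations correlated between -0.02 and 0.09 over genes. Among WT libraries, 3 of 5 correlated best with their own number. These values cannot tell whether same-numbered libraries share more than a number. The cause of these changes was not tested. The 6 positive correlations stayed between 0.20 and 0.92 with single libraries left out. The count of pairs with an adjusted p under 0.05 was between 0 and 1 with single libraries left out. Ankrd37 and Pfkl reached -0.78 without WT 5 (exact permutation, adjusted p = 0.0382). Hif3a and Pfkl reached 0.92 without Cmg2-KO 3 (adjusted p = 0.0486, exact permutation). The adjustment covered the pairs within each setting but not the many settings, so no correlation is claimed from these. The sign changed for Hif3a and Ankrd37, between -0.46 and 0.10, and for Ankrd37 and Bnip3, between -0.394 and 0.0765. Depth limits Hif3a most, with 7 reads in its lowest library.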
